A study of Gallus gallus with 4 samples.

Results

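GGLTR10 is a chicken endogenous retrovirus family, and the small RNA reads counted on it in the embryonic midbrain are described here. The family was taken as every row of the transposable element (TE) count tables whose name starts with GGLTR10, which gave 7 of 241 TE rows. Of these, 5 are long terminal repeat (LTR) rows (GGLTR10A, GGLTR10B, GGLTR10C1, GGLTR10C2 and GGLTR10D) and 2 are internal rows (GGLTR10C-int and GGLTR10D-int). The name alone set which rows belong, and no measured value was used for that. The family itself was chosen with earlier results of these data known.

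A retrovirus inserts with the same LTR at each end, and the LTR holds its promoter and its polyadenylation signal. The internal part between them carries the coding regions of the virus, and recombination between the LTRs often leaves a solo LTR without it. PIWI-interacting RNAs (piRNAs) are small RNAs that guide PIWI proteins to transposon transcripts, best known in the animal germ line. An antisense piRNA can pair with a transposon transcript, whereas a sense piRNA has the sequence of the transcript itself.

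The study sequenced small RNA of 19 to 38 nucleotides from the midbrain region of the head of wildtype Gallus gallus embryos at stage HH9-, reached after about 30 h at 37 °C. RNA of each sample was divided, and one portion was oxidized with sodium periodate, which destroys the 3′ end of RNAs that lack a 2′-O-methyl group and so selects for piRNAs. The other portion was left unoxidized and is called total here. Each group had 2 libraries, and setting them against each other shows which small RNAs withstand oxidation. Separate embryo pools are not stated for the replicates, so the p-values here cover the spread between these libraries, which may be technical. In such bulk RNA, fewer cells of a type and less RNA per cell cannot be told apart.

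The reads assigned to any feature numbered from 10981001 to 17962725 per library, and levels are given as CPM, a count scaled to the assigned reads of its library. A level depends on what else a library holds, and miRNA took 75.6% and 68.2% of the total libraries against 1.56% and 1.62% of the oxidized ones. Reads of the reverse tables are called antisense here: of the tRNA reads, which come from a known strand, no library had more than 0.00257% in them. Of the miRNA reads, 1.04% and 1.65% were in them in the oxidized libraries, and 0.0751% and 0.0767% in the total ones. The antisense shares of the GGLTR10 internal rows after oxidation, given below, are no larger than those of miRNA in the same library. In other-gene rows seen in only 1 oxidized library, with at least 20 reads, the median was 122 reads in oxidized replicate 1 (quartiles 88.8 and 146) and 130.5 in oxidized replicate 2 (quartiles 68.2 and 168). If this median is taken as the reads of 1 molecule, the GGLTR10 reads stand for about 25.6 and 68.1 molecules in the oxidized libraries. The estimate is itself untested, and the strands of GGLTR10C1 and GGLTR10D, given below, put it in doubt. The files do not pair gene IDs with names, so the tissue could not be checked against marker genes. The IDs of the gene and miRNA tables were searched in a RefSeq table, where 0 of 24356 matched.

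GGLTR10 was a scarce family whose reads took a larger share of the library after oxidation. The 7 rows together had 350 and 407 reads in total replicates 1 and 2, and 3123 and 8882 reads in oxidized replicates 1 and 2. Their mean level was 23.4 CPM in the total libraries (SD 5.48, n = 2) and 457.6 CPM in the oxidized ones (SD 244.9, n = 2), or 19.6-fold higher. The summed CPM of all TE rows was 50.4-fold higher, so GGLTR10 went from 0.225% and 0.269% of TE reads in the total libraries to 0.0586% and 0.137% in the oxidized ones. The oxidized and total libraries did not overlap on either scale.

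All 7 rows passed the filter on low counts and were called higher after oxidation (edgeR quasi-likelihood test, Benjamini-Hochberg adjusted p under 0.05 over 1326 rows of the 6 count tables). Among all rows tested 15.7% were called higher, and among the 105 TE rows tested 67.6% were. The filter needs enough reads in any 2 libraries, and GGLTR10A, GGLTR10B, GGLTR10C1 and GGLTR10D met it only through their oxidized libraries. Without the filter all 7 were still called, beside 69 of 171 TE rows. The adjusted p of the 7 rows ran from 0.0061 to 0.016. Their median log2 fold change was 4.32, beside 4.05 over all tested TE rows and -5.25 over all tested rows. With the replicate number as a block only GGLTR10C-int (edgeR adjusted p = 0.014) and GGLTR10D-int (adjusted p = 0.0012) were called. Calls fell generally with the block, to 99 of 1326 rows and 55 of 105 TE rows. The log2 fold changes of the LTR rows, from 3.91 to 5.46, stayed close to the unblocked 4.05 to 5.44. Without total replicate 1 or total replicate 2 the LTR rows were not called, and fewer TE rows were called in all. Those fits leave 1 total library, and the log2 fold changes of the 7 rows ran from 3.79 to 5.72 and from 3.94 to 5.54.

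**Figure D1:**
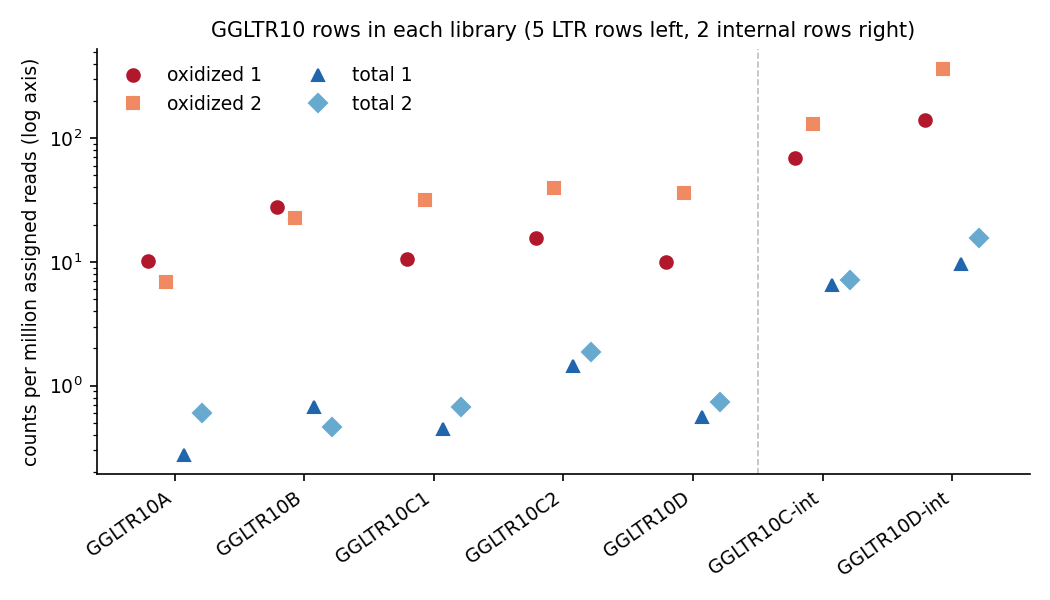
Level of each GGLTR10 row in each library, in CPM on a log axis, with 1 point per library. In all 7 rows both oxidized libraries lie above both total libraries. The share of TE rows with such a gap was not counted, and 67.6% of the 105 tested were called higher. The 2 internal rows are the most abundant in every library.

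Among the LTR rows, GGLTR10B had the highest fold change. Its reads numbered 12 and 7 before oxidation and 306 and 316 after it, or 0.668 and 0.468 CPM against 27.9 and 22.4 CPM. The oxidized libraries were close to each other and far above the total ones, a 44.3-fold difference (log2 fold change 5.44, SE 0.65, edgeR adjusted p = 0.0061). GGLTR10A, the least abundant row, had 5 and 9 reads in the total and 112 and 97 in the oxidized libraries. It was 19.4-fold higher after oxidation (log2 fold change 4.26, SE 0.89, adjusted p = 0.016), and it was not called when the library size excluded miRNA (adjusted p = 0.081).

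GGLTR10C1 went from 8 and 10 reads in the total libraries to 116 and 447 in the oxidized ones. GGLTR10C2, a sister subfamily by name, went from 26 and 28 reads to 171 and 558. GGLTR10D went from 10 and 11 reads to 109 and 511. In these 3 LTR rows oxidized replicate 2 was the higher library, by 3.0-, 2.54- and 3.66-fold in CPM. Their folds against the total libraries were 38.0, 16.6 and 35.8 (log2 fold change 5.23, SE 0.95, 4.05, SE 0.78 and 5.14, SE 1.01, edgeR adjusted p = 0.011, 0.012 and 0.013). GGLTR10C2 too was not called when the library size excluded miRNA (adjusted p = 0.058). In oxidized replicate 1 the reads of GGLTR10A, GGLTR10C1 and GGLTR10D lay between 109 and 116. By the estimate above that is 0.893 to 0.951 molecules each. In that library GGLTR10C1 had 38 antisense and 78 sense reads, and GGLTR10D had 57 and 52. A single molecule has 1 strand, so for both rows the estimate is likely too low.

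The internal rows held most of the family's reads. GGLTR10D-int had 173 and 235 reads in total replicates 1 and 2 and 1543 and 5138 in oxidized replicates 1 and 2, or 9.63, 15.7, 140.5 and 364.9 CPM. It was the most abundant of the 7 rows in all 4 libraries. The oxidized level was 19.9-fold higher (252.7 ± 158.6 CPM against 12.7 ± 4.31 CPM, SD, n = 2 each), with a log2 fold change of 4.32 (SE 0.71, edgeR adjusted p = 0.0093). GGLTR10C-int had 116 and 107 reads in the total and 766 and 1815 in the oxidized libraries, or 6.46, 7.16, 69.8 and 128.9 CPM. Its rise was 14.6-fold (99.3 ± 41.8 CPM against 6.81 ± 0.496 CPM, SD, n = 2 each), the lowest fold of the 7 rows, with a log2 fold change of 3.87 (SE 0.52, edgeR adjusted p = 0.0069). Among the 105 tested TE rows, GGLTR10D-int ranked 48 and GGLTR10C-int 56 by total level, and 43 and 51 by oxidized level.

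The oxidized replicates differed in opposite directions between GGLTR10 rows. The level in oxidized replicate 2 over that in oxidized replicate 1 was 2.60 for GGLTR10D-int and 1.85 for GGLTR10C-int, and 0.675 for GGLTR10A and 0.805 for GGLTR10B. Over the 71 TE rows called higher the median of this ratio was 1.16, and GGLTR10D, GGLTR10C1, GGLTR10D-int and GGLTR10C2 ranked 2 to 5 from the highest among them, while GGLTR10B and GGLTR10A ranked 62 and 65. In the total libraries the level in replicate 2 over that in replicate 1 ran from 0.701 for GGLTR10B to 2.16 for GGLTR10A, with GGLTR10D-int at 1.63 and GGLTR10C-int at 1.11. Replicates were thus closer in the total than in the oxidized libraries for both internal rows, GGLTR10C1, GGLTR10C2 and GGLTR10D, and farther apart for GGLTR10A and GGLTR10B. For these last rows the total ratios rest on 5 and 9 reads and on 12 and 7 reads, so counting error alone could set that order.

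Internal reads outnumbered LTR reads in every library, by less after oxidation. Summed over rows there were 289 and 342 internal against 61 and 65 LTR reads in the total libraries, a ratio of 4.74 and 5.26. In the oxidized libraries 2309 and 6953 internal reads stood against 814 and 1929 LTR reads, a ratio of 2.84 and 3.60. These are reads per row and not per length, since the files give no element lengths, so they do not order the parts by reads per base. The LTR rows rose 27.3-fold in summed CPM and the internal rows 18.1-fold. On the log2 scale the ratio of internal to LTR reads was 1.68 ± 0.244 after oxidation and 2.32 ± 0.107 before (n = 2 each), a difference of -0.64. The groups did not overlap, but with 2 libraries against 2 an exact two-sided permutation test has only 6 arrangements and cannot go below p = 0.333, which it gave here.

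Both matched subfamilies had lower ratios in the oxidized libraries, without overlap. For GGLTR10D the ratio of internal to LTR reads was 17.3 and 21.4 in the total and 14.2 and 10.1 in the oxidized libraries. For GGLTR10C, with GGLTR10C1 and GGLTR10C2 summed, it was 3.41 and 2.82 against 2.67 and 1.81. In GGLTR10C the nearest libraries of the groups, at 2.82 and 2.67, lay closer to each other than the replicates within a group did. The log2 fold change of GGLTR10D-int was lower than that of GGLTR10D by 0.83, and the difference did not pass (edgeR diffSpliceDGE, adjusted p = 0.44 over the 4 name pairs of the TE table, of which 25% were called). The called pair was ENS1, with a difference of -2.14 (edgeR diffSpliceDGE adjusted p = 0.0013). GGERV28 stood at -1.35, so both had a larger drop than GGLTR10D. GGERVL18 went the other way, at 0.21. For GGLTR10C-int against GGLTR10C1 plus GGLTR10C2, a pair added after the data were seen, the difference was -0.59 (adjusted p = 0.56 over 6 pairs). In GGLTR7, another family with rows of both kinds, the internal-to-LTR ratio was 0.440 and 0.588 in the total and 0.154 and 0.256 in the oxidized libraries. In GGERVL18 it was 4.75 and 5.01 against 6.76 and 4.89, so the groups overlapped there.

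**Figure D2:**
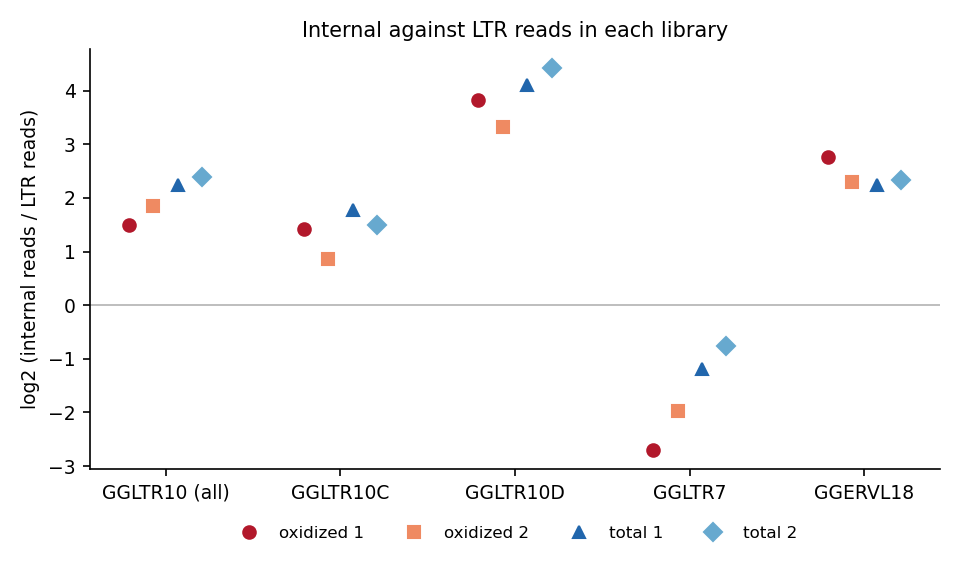
Log2 ratio of internal to LTR reads in each library, for all GGLTR10 rows, the GGLTR10C and GGLTR10D rows, and GGLTR7 and GGERVL18 for comparison. For all GGLTR10 rows the total libraries lie at 2.24 and 2.40 and the oxidized ones at 1.5 and 1.85.

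GGLTR10 reads were mostly sense, whereas the TE reads as a whole were mostly antisense. After oxidation 4.74% and 7.34% of GGLTR10 reads were antisense, against 96.3% and 95.5% of all TE reads. In the total libraries the antisense share was 42.0% and 29.5% for GGLTR10 and 75.8% and 80.1% for all TE reads. The antisense share was thus lower after oxidation for GGLTR10 and higher for TE reads as a whole, and the difference between the family and all TE reads was not tested.

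Oxidized reads of the internal rows were almost all sense, that is, of the strand of the annotated element. GGLTR10C-int had 0 antisense reads among 766 and among 1815 in the oxidized libraries, and 49 of 116 and 36 of 107 in the total ones. A count of 0 leaves a share of at most 0.480% and 0.203% (exact 95% binomial interval, counting error only). These bounds take each read as independent. By the estimate of reads per molecule, itself in doubt, the reads stand for about 6.28 and 13.9 molecules, for which the bounds would be much wider. GGLTR10D-int had 1 antisense read of 1543 and 60 of 5138 after oxidation, against 73 of 173 and 52 of 235 in the total libraries. As shares these are 0.0648% and 1.17% against 42.2% and 22.1%. In both internal rows the groups were far apart, while the total replicates of GGLTR10D-int differed beyond their counting intervals of 34.7 to 49.9% and 17.0 to 28.0%.

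The LTR rows had mixed strands. GGLTR10D had 57 of 109 and 419 of 511 antisense reads after oxidation and 7 of 10 and 7 of 11 in the total libraries. Its counting interval, which takes each read as independent, lay clear of an even split only in oxidized replicate 2, at 78.4 to 85.2%. By the estimate of reads per molecule, itself in doubt for this row, the 511 reads there stand for about 3.92 molecules. It was 42.5 to 61.9% in oxidized replicate 1, and 34.8 to 93.3% and 30.8 to 89.1% in the total libraries. GGLTR10C1 had 38 of 116 and 87 of 447 antisense reads after oxidation, against 4 of 8 and 7 of 10. GGLTR10C2 had 52 of 171 and 75 of 558, against 10 of 26 and 16 of 28. The groups thus overlapped in GGLTR10D and did not in GGLTR10C1 and GGLTR10C2, where the oxidized shares were the lower ones. How many TE rows had such a gap was not counted. In total replicate 1 their counting intervals, 15.7 to 84.3% and 20.2 to 59.4%, held the shares of oxidized replicate 1, 32.8% and 30.4%. In total replicate 2 the intervals, 34.8 to 93.3% and 37.2 to 75.5%, lay above the shares of both oxidized libraries. GGLTR10A had no antisense read in either oxidized library and 2 of 5 and 1 of 9 in the total ones, and GGLTR10B had 0 of 306 and 11 of 316 against 2 of 12 and 1 of 7. The intervals of these small total counts are wide, 5.27 to 85.3% for GGLTR10A in total replicate 1.

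**Figure D3:**
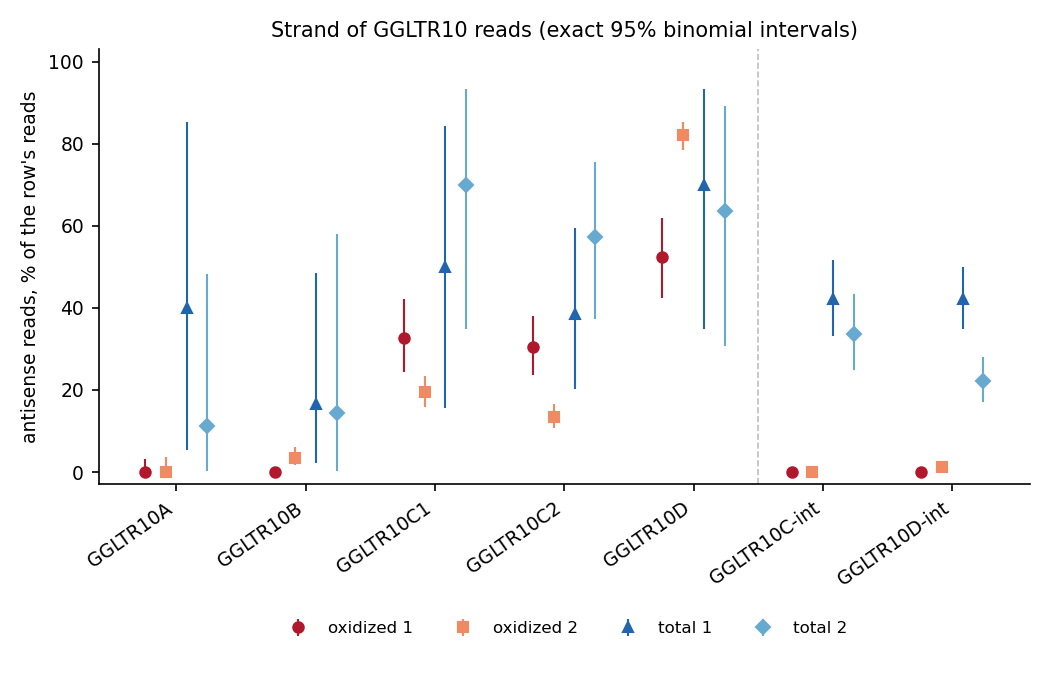
Antisense share of each GGLTR10 row in each library, in percent of the row's reads, with exact 95% binomial intervals that cover counting error only. The internal rows lie at 1.17% or less in both oxidized libraries and at 22.1% or more in both total libraries, while GGLTR10D lies at 52.3% or more in all 4.

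Summed over rows, the internal rows were 0.0433% and 0.863% antisense after oxidation and 42.2% and 25.7% in the total libraries, a mean difference of -33.5 percentage points. The LTR rows were 18.1% and 30.7% antisense after oxidation and 41.0% and 49.2% before, a difference of -20.7 points. The summed internal rows lay below the summed LTR rows in both oxidized libraries. This order did not hold for every LTR row. GGLTR10A had no antisense read in either oxidized library, and GGLTR10B had none in oxidized replicate 1. In oxidized replicate 2, GGLTR10D alone held 419 of the 592 antisense LTR reads. In the total libraries the summed internal rows lay below in replicate 2 and slightly above in replicate 1. An exact permutation test over the libraries gave p = 0.333 for both differences, the smallest it can give.

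A test of strand against oxidation across all rows was added after the data were seen, with the sense and antisense reads of a library as a pair. It called 0 of the 7 GGLTR10 rows, and 0% of 725 rows in all (edgeR quasi-likelihood interaction). At an unadjusted p under 0.05 it gave 3 GGLTR10 rows a lower antisense share, GGLTR10A, GGLTR10C-int and GGLTR10D-int, beside 6.76% of all 725 rows and 9.2% of the 87 TE rows tested. The log2 odds of antisense changed by -12.8 for GGLTR10C-int (SE 1.5, edgeR adjusted p = 0.10) and by -6.83 for GGLTR10D-int (SE 1.69, adjusted p = 0.19). The first value depends on the prior count, since no antisense read was seen. By the estimate of reads per molecule, which the strands of GGLTR10C1 and GGLTR10D put in doubt, the oxidized internal reads stand for about 72 molecules. Their 61 antisense reads come to less than 1 molecule by this estimate, where 24.0 molecules would be antisense at the share of 33.3% in the pooled total libraries.

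By strand, the sense reads carried the rise of the internal rows. Sense CPM of GGLTR10D-int was 5.57 and 12.2 in the total and 140.4 and 360.6 in the oxidized libraries, 28.1-fold higher, and that of GGLTR10C-int was 23.4-fold higher. All 7 rows were called higher in sense reads (edgeR, added after the data were seen), where 13.8% of 1193 tested rows and 67.5% of tested TE rows were. GGLTR10A, GGLTR10B, GGLTR10C1 and GGLTR10D again met the low-count filter only through their oxidized libraries. Without the filter 5 were called, beside 50 of 148 TE rows. With the replicate block 2 were called, GGLTR10C-int and GGLTR10D-int, beside 69 of 1193 rows and 33 of 80 TE rows.

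No internal row was called higher in antisense reads. GGLTR10D-int went from 4.06 and 3.48 antisense CPM in the total libraries to 0.0911 and 4.26 CPM after oxidation, and its test did not pass (log2 fold change -0.78, SE 1.40, edgeR adjusted p = 0.61). That value rests on oxidized replicate 2, which held 60 of the 61 antisense reads, and was -5.25 without it. That fit has 1 oxidized library, which is assumed to vary like the total ones, so its call (edgeR adjusted p = 6.8e-09) has no check on the oxidized side. GGLTR10D-int was also called lower with TMM factors (-5.23, edgeR adjusted p = 0.028) and with DESeq2 (-6.03, adjusted p = 4.6e-05). Those settings shift the median over all antisense rows by -4.36 and -5.03, so these calls depend on the scale. GGLTR10C-int went from 2.73 and 2.41 antisense CPM to 0 in both oxidized libraries, at least 21.5-fold lower against a floor of 3 reads over both, and it was called lower (edgeR adjusted p = 0.00068). By the estimate only 0.508 antisense molecules would be expected there at an unchanged CPM. It was not called when oxidized reads were counted as molecules (edgeR adjusted p = 0.48), nor under the replicate block (adjusted p = 0.13) or without either total replicate (adjusted p = 0.33 for each).

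Antisense reads of 3 LTR rows rose on the scale of assigned reads. They were GGLTR10D (log2 fold change 5.32, SE 1.19, edgeR adjusted p = 0.0065), GGLTR10C1 (3.78, SE 0.81, adjusted p = 0.0054) and GGLTR10C2 (2.62, SE 0.73, adjusted p = 0.016). Of the 7 rows, 5 passed the filter on low antisense counts. These 3 LTR rows met it only through their oxidized libraries, and the 2 internal rows only through their total ones. Without the filter GGLTR10D was still called, but GGLTR10C1 (edgeR adjusted p = 0.085) and GGLTR10C2 (adjusted p = 0.38) were not. Of the TE rows, 65 of 155 were then called higher. Of all 210 rows tested on the antisense strand 50% were called higher and 33.3% lower, and of 85 TE rows 76.5% and 14.1%. These directions depend on the scale: TMM factors, which shift the median over antisense rows by -4.36, turned GGLTR10C1 to -0.62 and GGLTR10C2 to -1.79 and called no LTR row higher. GGLTR10C2 was then called lower (edgeR adjusted p = 0.036), as it was with DESeq2 (-2.40, adjusted p = 0.0030). When the library size excluded miRNA, GGLTR10C2 stood at 0.85 and was not called (edgeR adjusted p = 0.32). None of the 3 calls held with the replicate block or without either total replicate.

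Most TE rows with many oxidized reads lay at the opposite end of the strand scale. Among the 59 TE rows with at least 1000 oxidized reads, 33 were over 90% antisense in the pooled oxidized libraries and 6 were under 10%. GGLTR10C-int had the lowest share of the 59, 0% of 2581 reads, and GGLTR10D-int the third lowest, 0.913% of 6681 reads. Between them lay the LTR row GGLTR5B at 0.0385%, and next came the internal rows EAVHP_I-int at 2.34% and GGLTR7-int at 3.93%, then the LTR row GGLTR7A at 8.27%. Of the 10 other internal rows with as many oxidized reads, 5 were over 90% antisense, among them GGERVL18-int at 99.3% and GGERVL-B-int at 93.8%. Below the cutoff of 1000 reads, GGERVK10-int was 0.230% antisense in 434 oxidized reads and 62.1% in 66 total reads. That drop is larger than in either GGLTR10 internal row. In the total libraries GGLTR10D-int and GGLTR10C-int ranked 17 and 22 from the lowest antisense share among 75 TE rows with at least 100 total reads.

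**Figure D4:**
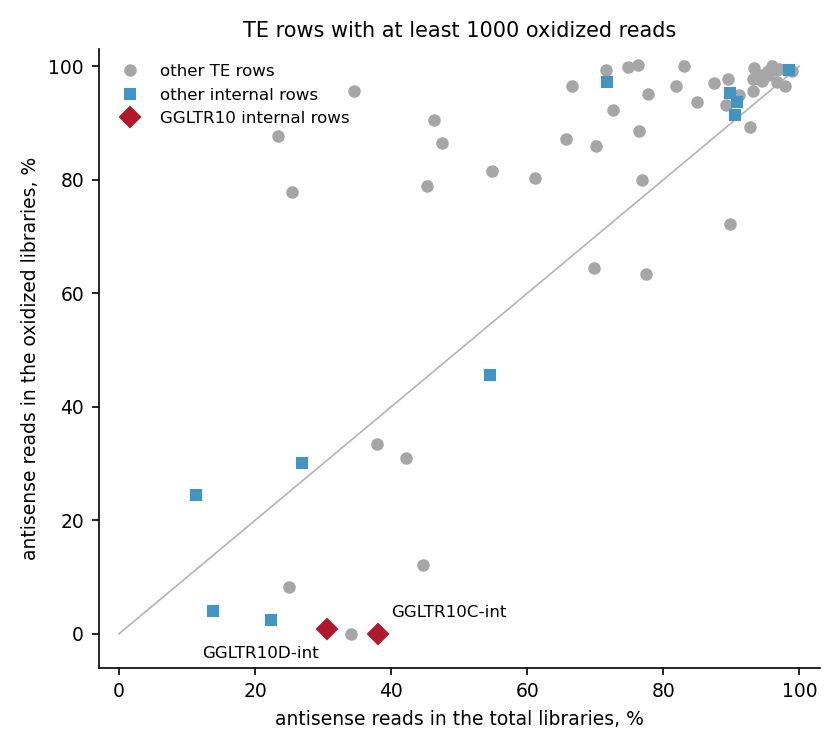
Antisense share of reads in the pooled total libraries (x axis) and in the pooled oxidized libraries (y axis), both in percent, for the 59 TE rows with at least 1000 oxidized reads, with a line of equal shares. GGLTR10C-int and GGLTR10D-int lie at 38.1% and 30.6% on the x axis and at 0% and 0.913% on the y axis.

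The rows most like GGLTR10 in profile were sought among 62 other TE rows with at least 1000 reads, by Euclidean distance over 5 numbers. These were the log2 oxidized-to-total ratio of each replicate number, the log2 mean total CPM and the antisense share in each group, with 10 percentage points counted as 1 log2 unit. Closest to the summed internal rows were GGLTR7-int, GGLTR5B and EAVHP_I-int, at distances of 2.84, 2.89 and 3.05. They rose 33.8-, 26.6- and 47.0-fold. Closest to the summed LTR rows were the DNA transposon Mariner1_GG, GGERVK1-int and GGLTR5B, at 2.61, 3.03 and 3.31. Their folds were 9.50, 54.0 and 26.6, against 27.3 for the summed LTR rows. Pooled antisense shares after oxidation were 33.4%, 30.1% and 0.0385%, against 26.9%, so the likeness was partial. The measure covers 4 libraries only, and the rows share their library and depth.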

How the data were processed

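For each library the authors deposited 6 tables of raw read counts (TE, miRNA, tRNA, rRNA, other repeats, other genes), each unstranded and reverse. The submitters' processing notes name featureCounts and the galGal6 build. The aligner, the annotation and the handling of multi-mapping reads are not given in the sources used here, so the split of reads between GGLTR10C1 and GGLTR10C2, or between near-identical internal copies, is uncertain. No coordinates or sequences were used.

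All 48 files were read. Library size was the summed unstranded count of the 6 tables. One model per strand setting covered every row of the 6 tables, run in edgeR 4.0.16 under R 4.3.3 (glmQLFit, glmQLFTest, default expression filter, no TMM) with Benjamini-Hochberg adjustment at 0.05. A fold is the mean CPM of one group over that of the other, and SEs are the log2 fold change over the square root of F. Name pairs were tested with diffSpliceDGE, and shares by exact permutation tests with scipy 1.17.1. Sense counts are unstranded minus reverse counts, and in none of the GGLTR10 rows did reverse exceed unstranded counts. In the TE row GGLTR3B1 it did, at 100.2% antisense in the pooled oxidized libraries, so shares and sense counts of other rows are not always exact. Negative sense counts were set to 0. The strand test used rows with at least 50 reads in all and 10 in each group. Tests were run on simulated counts of 1 fixed spread, where 8-fold changes were recovered in 96.5 to 100% of changed rows or pairs, with 5 to 10 false calls. The simulation held no PCR copies of molecules, so it does not show how the tests do where reads are such copies. Rows were named in full where they had at least 100 reads over the 4 libraries, which all 7 had. Alternatives were TMM, DESeq2 1.42.0, another library size, no filter, a replicate block, molecules and leaving out each library.

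The series text says that samples were split for oxidation, but the labels do not say which libraries belong together, so the main fits were unpaired and the replicate block was an alternative. Their deviations from the group means correlated with r = 0.053 over 1326 rows. The members, lists and tests were chosen with earlier results of these data known. Binomial intervals and floors cover counting error only, since PCR copies are not independent molecules.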

Additional observations from a re-analysis of the deposited data

How the results depend on the processing

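The number of GGLTR10 rows called higher in unstranded counts was 7, and 2 with the replicate block and between 2 and 7 without single libraries. It was 5 or 7 under the other alternatives, and 0 rows were called lower under any of them. Of the 105 TE rows tested, 71 were called higher in the main fit and 55 with the replicate block. TMM factors, DESeq2 and leaving miRNA out shifted the median over unstranded rows by -0.17, -0.15 and -1.75. The log2 ratio of summed levels was 4.77 for LTR rows and 4.18 for internal rows. With miRNA left out these were 2.96 and 2.38, as the median over rows the LTR value was 5.16, and without single libraries they ran from 4.26 to 5.14 and from 3.43 to 4.66. Internal minus LTR was -0.59, -1.07 as the median over rows, -0.64 with the replicate block and -0.83 to -0.48 without single libraries. The pair test of GGLTR10D kept its direction and did not pass under any alternative, with adjusted p from 0.13 to 0.73 and differences of -0.96 to -0.46 without single libraries.

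Reverse calls depended most on the processing. The 3 rows higher became 0 with TMM factors, DESeq2 and the replicate block, 1 without the low-count filter and 2 with miRNA left out, and ran from 0 to 3 without single libraries. With molecules the count was 0, but those 3 rows were not tested. Of the TE rows, 65 of 85 were called higher in the main fit and 54 of 85 with the replicate block. With TMM factors 26 of 85 were, with DESeq2 27 of 85, without the low-count filter 65 of 155 and with miRNA left out 58 of 90. The 1 row lower became 3 with TMM factors and with DESeq2, 0 with the replicate block and with molecules, and ran from 0 to 2 without single libraries. In reverse counts GGLTR10C1 turned to -0.62 with TMM factors and -1.26 with DESeq2, GGLTR10C2 to -1.79 and -2.40, and GGLTR10D-int to 0.17 without oxidized replicate 1, against -5.25 without oxidized replicate 2. The cause was not tested. Sense calls fell from 7 to 2 with the replicate block and to 5 with miRNA left out or without the low-count filter, were 4 of the 4 rows tested with molecules, and ran from 2 to 7 without single libraries.

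The antisense share differences, oxidized minus total, kept their sign in every alternative run, from -27.0 to -14.4 points for LTR rows and from -41.8 to -25.3 points for internal rows without single libraries. With the replicate block they were -20.7 and -33.5 points. Internal minus LTR within the total libraries was -11.1 points and turned to 1.23 without total replicate 2, with a range from -23.5. Within the oxidized libraries it was -23.9 points. The strand test called 0 rows lower in the main fit. Without oxidized replicate 1 its log2 odds changes were -13.3 for GGLTR10C-int and -5.27 for GGLTR10D-int, and without oxidized replicate 2 they were -12.3 and -9.33. In these 2 fits TE rows were called in both directions, which the main fit did not do. Fits without an oxidized or a total library leave 1 library in that group, which is assumed to vary like the other group. The strand test's value for GGLTR10D turned to -0.84 without oxidized replicate 2 and to -0.02 without total replicate 2, and was 1.21 without oxidized replicate 1. Leaving out rows under 100 reads, or rows with more reverse than unstranded reads, removed none of the 7. Depth limits the LTR rows most, at 61 and 65 total reads in all.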
